A study of Mus musculus with 32 samples.

Results

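The loci of the mouse genes Lefty1, Lefty2 and Nodal were examined through every peak that overlapped 2 windows of the genome build mm9 by at least 1 bp. A window of 65 kb on chromosome 1, from 182815000 to 182880000, was set for Lefty2 and Lefty1, and a window of 35 kb on chromosome 10, from 60865000 to 60900000, for Nodal. Of the 387563 peaks in 26 lists, 81 were members, with 51 in the Lefty window and 30 in the Nodal window. The peaks came from chromatin immunoprecipitation and sequencing (ChIP-seq) in J1 mouse embryonic stem (ES) cells, grown in medium with fetal calf serum and LIF and fixed with formaldehyde. For each of 7 targets there was 1 library each of wild-type cells, Taf5l-KO cells and Taf6l-KO cells, where KO stands for knockout. The targets were Oct4, Myc, H3K4me3, H3K9ac and RNA polymerase II (RNAP) in its total form and phosphorylated on serine 5 (RNAP-ser5) or serine 2 (RNAP-ser2) of its C-terminal repeats. Flag-Biotin tagged TAF5L and TAF6L (TAF5L-FB and TAF6L-FB) were captured on streptavidin beads from 2 lines per protein in the wild-type background, with a BirA sample as the control (BirA is the biotin ligase used for such tags). TAF5L and TAF6L belong to SAGA-type coactivator complexes, which can acetylate histone H3. How many clones each knockout stands for was not given in the labels, and the targeted genes and ES cell markers were not analysed here.

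Nodal is a secreted ligand of the TGF-beta family that signals through activin-type receptors and SMAD2 and SMAD3. Lefty1 and Lefty2 are secreted antagonists of Nodal that are themselves switched on by Nodal signalling, so the 3 genes form a feedback loop. In ES cells they are active along with the pluripotency programme, of which Oct4, a POU-family factor, is a central member. H3K4me3 is a mark of promoters, H3K9ac of active promoters and enhancers, serine 5 phosphorylation of early transcription and serine 2 phosphorylation of elongation.

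No gene annotation of build mm9 was used, so peaks were placed by window and position and not assigned to a gene. In the RefSeq order of genes (build GRCm38), Pald1 and Eif4ebp2 are the neighbours of Nodal. A promoter mark in either window can belong to a gene other than Lefty1, Lefty2 or Nodal. Of the 3 genes, 1 had a promoter sequence in the RefSeq table used, and it is shown as the promoter of the ligand whose window held, of the 4 wild-type Oct4 peaks in the windows, the 1 without overlap in either knockout list. The promoter of Nodal lies on the plus strand at chr10:61417722-61418021 in build GRCm38.p6, and the capitals mark the 50 bases from the start of the gene, after 250 bases before it:
Nodal: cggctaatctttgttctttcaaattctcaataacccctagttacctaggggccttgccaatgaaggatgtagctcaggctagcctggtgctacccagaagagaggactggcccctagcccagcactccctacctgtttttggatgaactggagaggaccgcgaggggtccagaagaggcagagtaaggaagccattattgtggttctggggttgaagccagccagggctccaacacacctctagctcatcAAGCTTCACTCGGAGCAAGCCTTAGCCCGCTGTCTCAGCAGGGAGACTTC
The octamer ATGCAAAT, bound by Oct4, the FOXH1 motif AATCCACA, bound by the partner of the Nodal-activated SMADs, and the E-box CACGTG, bound by Myc, were searched on both strands. None of these exact letter strings was in the 300 bases of Nodal, and of 32851 RefSeq promoters of that length 1.74%, 0.855% and 7.15% held them. The mm9 peaks cannot be placed on this sequence, since it comes from another build.

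Depth ranged from 1702363 to 22968606 unique tags over the 21 antibody libraries and from 18292747 to 27775010 over the 5 streptavidin libraries. With 1 library per target and genotype, differences between genotypes have no replicate check and no test was possible. Fold enrichment, the ratio of the pileup at a peak to the local background, is the authors' value. Ranks were taken only within a list, where rank 1 is the strongest peak. Fold enrichments of different lists stand side by side without scaling, and the list means differed. For H3K4me3 the mean was 6.4 for the wild type, 7.21 for Taf5l-KO and 7.48 for Taf6l-KO. For total RNAP the means were 5.02, 5.45 and 5.8, and for Oct4 9.05, 9.32 and 9.09. A peak was called overlapped when a peak of the other list shared at least 1 bp with it, and each count stands beside the share of the whole list that met the same rule.

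At Nodal, the ligand, the wild-type lists held 18 peaks of 5 targets, the Taf5l-KO lists 7 and the Taf6l-KO lists 5. In order of position they formed a place that held the only Oct4 peak of the window together with H3K4me3, RNAP and RNAP-ser5, an H3K4me3 block with RNAP, and a stretch of RNAP-ser5 and RNAP-ser2, with single peaks between and after them. Covered bases of RNAP-ser2 were 6940 bp for the wild type, against 187 bp for Taf5l-KO and 1094 bp for Taf6l-KO. For RNAP-ser5 they were 8205 bp, 2315 bp and 0 bp. Those of H3K4me3 were 4427 bp, 1680 bp and 2085 bp, and those of total RNAP were 1286 bp, 809 bp and 1372 bp. The covered bases of both phosphorylated forms and of H3K4me3 were thus lower in both knockout lists, and those of total RNAP in the Taf5l-KO list alone. The peak counts depended on how peaks were split and on the threshold. With peaks less than 1000 bp apart merged, wild-type RNAP-ser5 fell from 8 peaks to 3, against 4 in Taf5l-KO, and wild-type H3K4me3 from 4 to 2. At a −log10 q of at least 5, H3K4me3 kept 1 peak in each genotype. In the order wild type, Taf5l-KO, Taf6l-KO, total RNAP then had 1, 0 and 1 peaks and Oct4 had 1, 0 and 0. Neither phosphorylated form kept any. Without that threshold, the Lefty window held 18, 13 and 16 peaks in the same order. The whole RNAP-ser5 lists held 45366 peaks for the wild type, 22190 for Taf5l-KO and 17000 for Taf6l-KO. Those of H3K4me3 held 32370, 32098 and 29463. Total RNAP had list sizes of 29370, 20583 and 26734. For RNAP-ser2 the sizes were 43039, 31583 and 42451.

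**Figure D1:**
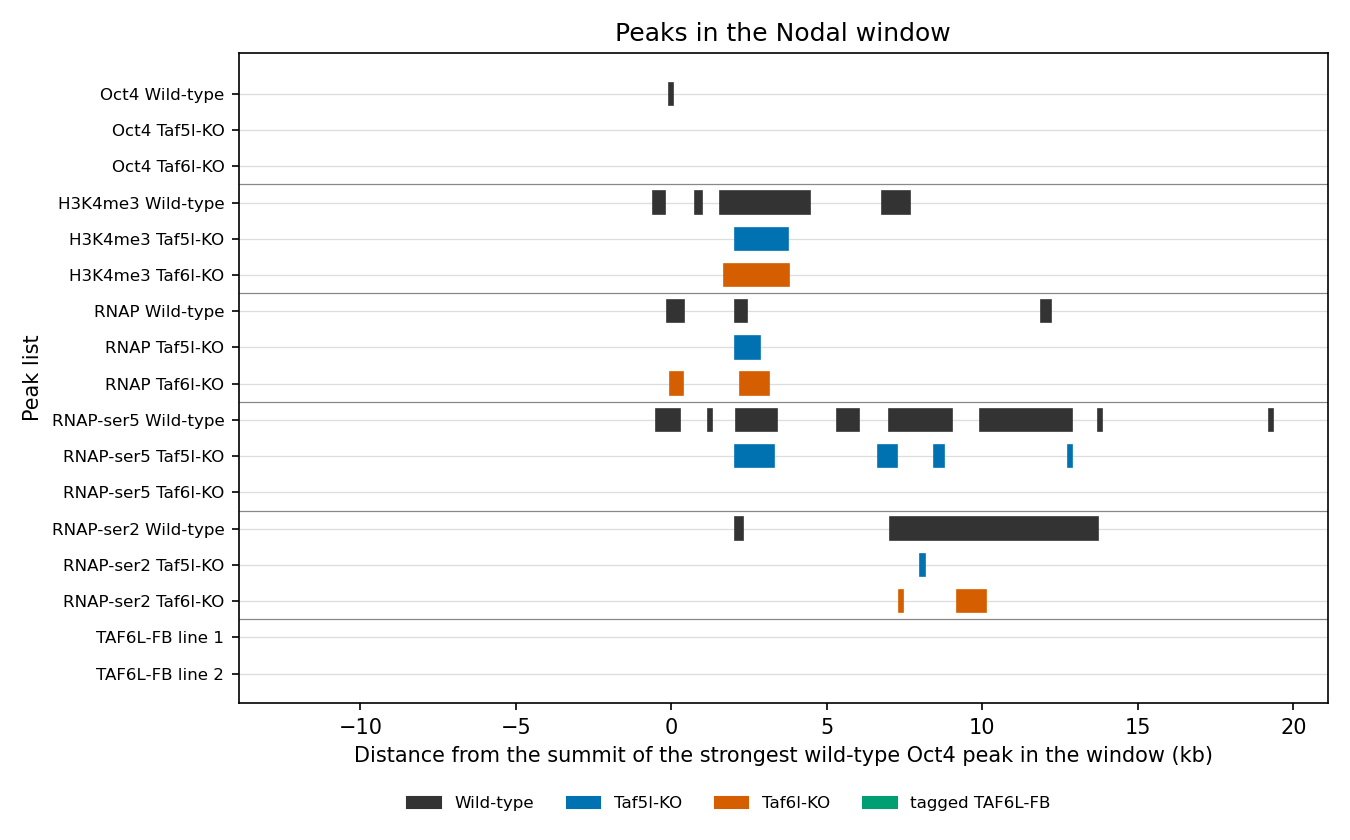
Peaks in the Nodal window, 1 row per list, against the distance in kb from the summit of the wild-type Oct4 peak, with the outline making the narrowest peaks slightly wider than scale. The 2 wild-type RNAP-ser2 peaks cover 6940 bp and the knockout peaks 187 and 1094 bp, and no Oct4 peak is listed in either knockout.

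The Oct4 peak of the Nodal window lay from 60878814 to 60878943, 130 bp wide, with its summit at 60878903. Its fold enrichment was 6.96 and its rank 1557 of 2564, and its −log10 q was 5.94. Neither knockout list held an Oct4 peak in the window. Of all wild-type Oct4 peaks, 33.3% were overlapped in neither knockout. For comparison by strength, each list was divided into 10% strata by fold enrichment, or by width where widths are compared. In the stratum of this peak, from 6.72 to 7.12, 43.8% were overlapped in Taf5l-KO and 28.9% in Taf6l-KO. In 35 kb stretches of the genome, 3.1% held a wild-type Oct4 peak.

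The same place, joined over all lists from 60878314 to 60879324, also held wild-type peaks of H3K4me3 (fold enrichment 3.34), RNAP (4.09) and RNAP-ser5 (3.32). Only RNAP in Taf6l-KO was listed there among the knockouts, from 60878851 to 60879279, its fold enrichment being 6.16 at rank 8453 of 26734. In wild-type cells the RNAP peak ranked 17585 of 29370. The strata of these wild-type peaks were often without overlap too. In Taf5l-KO 40.5% of the H3K4me3 stratum, 46.1% of the RNAP stratum and 18.3% of the RNAP-ser5 stratum were overlapped, and in Taf6l-KO 31%, 53.7% and 10.4%. RNAP was thus listed in the Taf6l-KO library at this place without Oct4.

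The main H3K4me3 block of the Nodal window lay from 60880457 to 60883376 in wild-type cells. It was 2920 bp wide, with a fold enrichment of 9.39 and rank 5466 of 32370. In Taf5l-KO it spanned 1680 bp, from 60880963 to 60882642 (fold enrichment 8.15, rank 10680 of 32098). In Taf6l-KO it spanned 2085 bp, from 60880610 to 60882694 (7.25, rank 12904 of 29463). The widths were 0.575 and 0.714 times that of the wild type. Among overlapped wild-type H3K4me3 peaks of the widest 10% the median ratios were 0.908 and 0.825, and 6.42% and 28.5% had a ratio as low. All wild-type peaks in the same 10% stratum by fold enrichment were overlapped in both knockouts (100%). The H3K4me3 libraries held 15136528 unique tags for the wild type, 8886529 for Taf5l-KO and 13041135 for Taf6l-KO. Their whole lists covered 35.2 Mb, 33.5 Mb and 29.6 Mb. The part of depth in these widths was not tested.

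Total RNAP at this block was the strongest RNAP peak of the window in wild-type cells, from 60880960 to 60881332, its fold enrichment being 7.06 at rank 3498 of 29370. It was also listed in Taf5l-KO, from 60880934 to 60881742 (5.13, rank 8533 of 20583), and in Taf6l-KO, from 60881106 to 60882048 (4.39, rank 17309 of 26734). While its fold enrichment was lower, its widths were 2.17 and 2.53 times that of the wild type. The medians of its stratum by width were 1.46 and 1.33. RNAP-ser5 was listed there in wild-type cells (3.50) and Taf5l-KO (4.19), and RNAP-ser2 in wild-type cells alone (4.45, rank 7829 of 43039). The block therefore kept H3K4me3 and RNAP in all 3 genotypes. It had no RNAP-ser5 in Taf6l-KO, where 12.1% of the stratum of that wild-type peak was overlapped. It had no RNAP-ser2 in either knockout list, against 53.7% of the stratum overlapped in Taf5l-KO and 57% in Taf6l-KO.

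Beyond the block, RNAP-ser2 in wild-type cells formed 1 peak of 6678 bp, from 60885949 to 60892626. Its fold enrichment was 4.25 and its −log10 q 2.76, and by width it ranked 395 of 43039, in the widest 0.918% of the list. Taf5l-KO had 1 peak of 187 bp inside it, from 60886887 to 60887073 (4.62), and Taf6l-KO had peaks of 142 bp and 952 bp, from 60886217 to 60886358 (4.32) and from 60888074 to 60889025 (3.38). The summed width was 0.028 and 0.164 times that of the wild type. In the widest 10% of the wild-type RNAP-ser2 list, the medians for overlapped peaks were 0.769 and 0.55, and 0.0274% and 10.1% had a ratio as low. That 0.0274% is this peak itself. Most of that 10% was narrower than this peak in wild-type cells, so the comparison was not matched for its width.

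RNAP-ser5 covered the same stretch in wild-type cells with peaks of 2018 bp, from 60885917 to 60887934 (fold enrichment 4.07), and 2969 bp, from 60888825 to 60891793 (3.53), and a short one of 141 bp from 60892613 (3.40). In Taf5l-KO there were peaks of 609 bp, 328 bp and 142 bp, with fold enrichments of 4.23, 3.97 and 3.75. In Taf6l-KO none was listed, and of the strata of these wild-type peaks between 12.1% and 26.2% were overlapped there. A wild-type H3K4me3 peak (60885669 to 60886581, 4.15) and a wild-type RNAP peak (60890774 to 60891123, 3.91) also lay in the stretch and were overlapped in neither knockout. In the H3K4me3 stratum 71.5% were overlapped in Taf5l-KO and 62.4% in Taf6l-KO, and in the RNAP stratum 37.6% and 46.2%. Outside all these places, single wild-type peaks of RNAP-ser5 began at 60880073, 60884214 and 60898108, and 1 of H3K4me3 at 60879680.

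The RNAP-ser5 and RNAP-ser2 peaks of both windows were weak, and all 30 had a −log10 q under 5, from 1.14 to 3.43. At a threshold of 5 these lists held nothing in either window, in any genotype, so the difference in coverage rests on the weak part of the lists. Depth also differed. The RNAP-ser5 libraries held 3871824 unique tags for the wild type, 8807133 for Taf5l-KO and 1702363 for Taf6l-KO, the last with 92.6% duplicate tags. The RNAP-ser2 libraries held 6295522, 5390622 and 3842867. The whole RNAP-ser5 lists covered 29.8 Mb, 20.6 Mb and 8.29 Mb, with mean fold enrichments of 3.69, 4.33 and 4.35. The whole RNAP-ser2 lists covered 33.4 Mb, 27.2 Mb and 25.1 Mb, with means of 4.02, 3.99 and 4.10. The part of depth in the differences at Nodal was not tested.

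**Figure D2:**
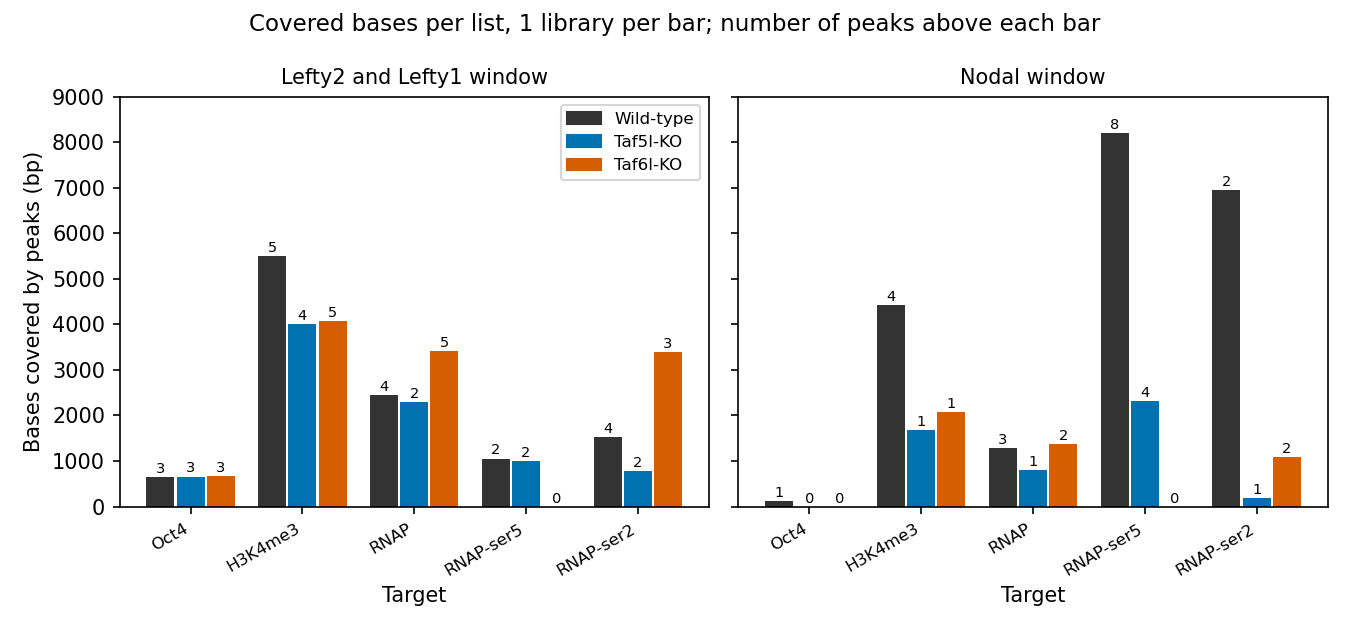
Bases covered by peaks (bp) in each window by target and genotype, 1 library per bar, with the number of peaks above each bar. In the Lefty window Oct4 covers 655, 659 and 666 bp, while in the Nodal window RNAP-ser2 covers 6940, 187 and 1094 bp.

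At the Lefty genes, the antagonists, Oct4 was listed at the same 3 sites in all 3 genotypes. Of the 40627 stretches of 65 kb into which the genome was divided, 0.0911% held 3 or more wild-type Oct4 peaks, 0.0812% in the Taf5l-KO list and 0.0394% in the Taf6l-KO list. The wild-type summits lay 36 kb and 9.02 kb apart, and the summits of the 3 genotypes lay within 50 bp, 34 bp and 37 bp of each other at the 3 sites. Oct4 covered 655 bp in the wild-type list, against 659 bp for Taf5l-KO and 666 bp for Taf6l-KO. With the Nodal peak, 3 of 4 wild-type Oct4 peaks were overlapped in Taf5l-KO and 3 of 4 in Taf6l-KO, against 59.1% and 46.5% of the whole list. Overlap in both knockouts was met by 38.9% of the list. None of the 3 Oct4 peaks in either knockout lay outside wild-type peaks, against 50.1% of the Taf5l-KO list and 41.7% of the Taf6l-KO list.

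**Figure D3:**
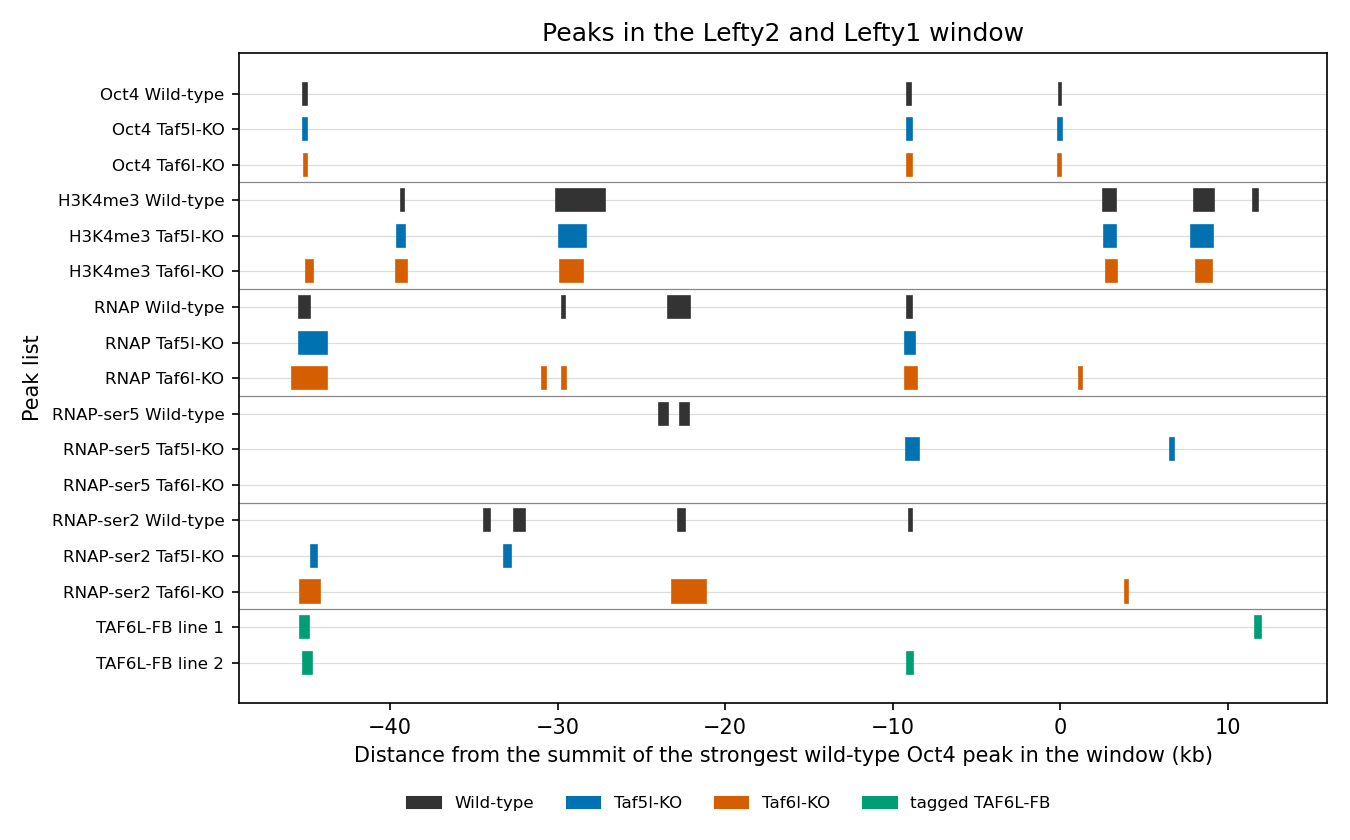
Peaks in the Lefty2 and Lefty1 window, 1 row per list, against the distance in kb from the summit of the strongest wild-type Oct4 peak, with the outline making the narrowest peaks slightly wider than scale. Oct4 is listed at 3 sites in each genotype, and the leftmost site is shared with RNAP in 3 genotypes and with both TAF6L-FB lines.

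The first Oct4 site lay from 182818835 to 182819072 in wild-type cells, its fold enrichment being 6.04 at rank 2080 of 2564. In Taf5l-KO its fold enrichment was 10.1 with rank 913 of 3034, and in Taf6l-KO 12.6 with rank 271 of 2049. By fold enrichment it was thus in the weaker part of the wild-type list and in the stronger part of both knockout lists. By pileup height its rank was 162, 197 and 162, so it was among the highest peaks in each list and its place in the wild-type list depended on the measure. In the same 10% stratum of the wild-type list by fold enrichment, 39.5% of the peaks were overlapped in Taf5l-KO and 27% in Taf6l-KO.

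This first site was the place with the most lists in the Lefty window, at 11 lists of 5 targets between 182818155 and 182820269. RNAP was listed in wild-type cells (625 bp, fold enrichment 4.91, rank 10436 of 29370), Taf5l-KO (1668 bp, 5.11, rank 8602 of 20583) and Taf6l-KO (2115 bp, 6.93, rank 6436 of 26734). The knockout widths were 2.67 and 3.38 times that of the wild type. In that 10% stratum of the wild-type RNAP list by width the medians were 0.982 and 1.01, and 92.3% and 97.2% of the overlapped peaks had a ratio that low or lower. RNAP-ser2 was listed there in Taf5l-KO (3.25) and Taf6l-KO (3.76) but not in wild-type cells, and H3K4me3 in Taf6l-KO alone (380 bp, 4.59). Wider RNAP peaks were not particular to this site. The knockout widths were 2 and 2.18 times that of the wild type at the second site, and 2.17 and 2.53 times at the Nodal block. The stratum medians there were 1.46 and 1.33. In Taf6l-KO the ratio was 1.45 for the peak at 182834306 (median 2.2) and 0.762 at the Nodal Oct4 place (median 1.08). The unique tags of RNAP were 5174150, 15865460 and 7236644, and the part of depth in these widths was not tested.

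TAF6L-FB was listed at the first site in both lines. Line 1 had a peak from 182818661 to 182819167, at a fold enrichment of 5.12 and rank 122 of 1140, and line 2 one from 182818809 to 182819366, with 4.03 and rank 446 of 628. Of the wild-type Oct4 peaks, 10.0% were overlapped by a TAF6L-FB peak of either line, 1.91% by both lines and 17.1% by RNAP in all 3 genotypes. Oct4 and RNAP in all 3 genotypes together with both TAF6L-FB lines were met by 20 of the 2564 wild-type Oct4 peaks (0.78%), of which this site was 1.

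The second Oct4 site lay from 182854863 to 182855119 in wild-type cells, with a fold enrichment of 9.98 and rank 705 of 2564. It had a fold enrichment of 17.7 and rank 155 of 3034 in Taf5l-KO, and of 19.5 and rank 51 of 2049 in Taf6l-KO, where it was the strongest Oct4 peak of the window. In its stratum of the wild-type list 72.4% and 59.5% of the peaks were overlapped in Taf5l-KO and Taf6l-KO. The place held 9 lists of 5 targets from 182854758 to 182855628. RNAP there had fold enrichments of 3.51 for the wild type, 4.21 for Taf5l-KO and 6.29 for Taf6l-KO, with ranks of 26562 of 29370, 13950 of 20583 and 8069 of 26734. RNAP-ser2 in wild-type cells (3.39) and RNAP-ser5 in Taf5l-KO (3.78) were listed once each. Line 2 of TAF6L-FB had a peak from 182854873 to 182855277 (3.62, rank 510 of 628), and line 1 had none.

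The third Oct4 site lay from 182863940 to 182864099. It was the strongest of the wild-type Oct4 peaks in the window, with a fold enrichment of 14.4 and rank 217 of 2564. In Taf5l-KO it had a fold enrichment of 19.3 and rank 114 of 3034, and in Taf6l-KO 6.89 and rank 1435 of 2049. By pileup height it ranked 162 in the wild type, 253 in Taf5l-KO and 300 in Taf6l-KO. In its stratum of the wild-type list 89.9% and 87.2% of the peaks were overlapped in Taf5l-KO and Taf6l-KO. No peak of any other target lay on it in any of the lists, as at 19.7% of the wild-type Oct4 peaks, which were overlapped by Oct4 in both knockouts and by nothing else. By fold enrichment the third site was thus first of the 3 in wild-type cells and Taf5l-KO and last in Taf6l-KO. Its place in Taf5l-KO turned on the measure. There it was last by pileup height and second by −log10 q, at rank 144 against 125 for the second site. In wild-type cells it was also first by −log10 q, at rank 176, and level with the first site by pileup height, at rank 162. In Taf6l-KO it was last by −log10 q, at rank 917, and by pileup height. With 1 library per genotype, this difference was not tested.

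**Figure D4:**
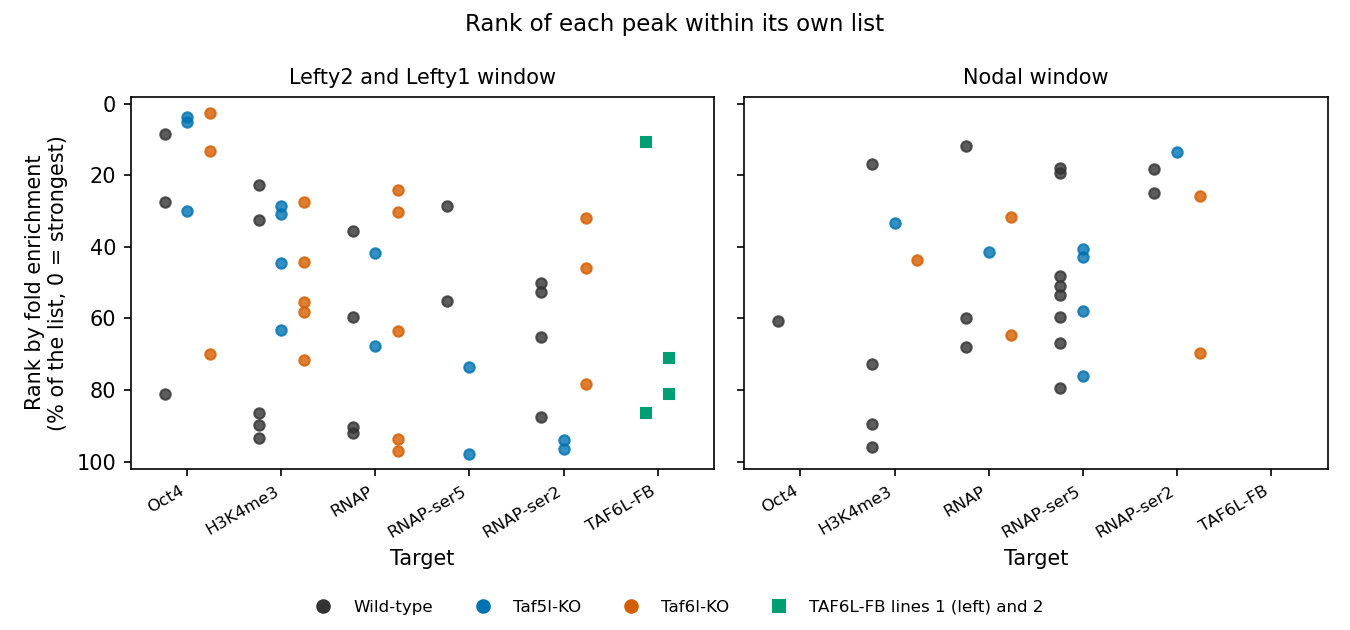
Rank of each peak by fold enrichment within its own list, in percent of the list with the strongest at the top, by target and genotype in both windows. The best-ranked peaks are Oct4 peaks of the Lefty window, at 8.46% for the wild type, 3.76% for Taf5l-KO and 2.49% for Taf6l-KO, and lists of different lengths are not comparable in rank.

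H3K4me3 was listed in the Lefty window at 4 places in all 3 genotypes, 1 in wild-type cells alone and 1 in Taf6l-KO alone. The widest wild-type peak, from 182833943 to 182836864, spanned 2922 bp with a fold enrichment of 7.33. In Taf5l-KO it spanned 1603 bp (8.46) and in Taf6l-KO 1429 bp (9.45), which are 0.549 and 0.489 times the wild-type width. In the widest 10% of the wild-type list 5.4% of the overlapped peaks had a ratio as low in Taf5l-KO and 5.4% in Taf6l-KO. The wild-type H3K4me3 library was the deepest of the 3, and the part of depth in these widths was not tested. The strongest wild-type peak, from 182872020 to 182873236, had fold enrichments of 8.58, 8.78 and 7.18 and widths of 1217 bp, 1286 bp and 955 bp, in the order wild type, Taf5l-KO, Taf6l-KO. The 2 weaker shared places, beginning at 182824653 and 182866569 in wild-type cells, had fold enrichments of 3.65 and 3.55 there. In Taf5l-KO these were 5.24 and 6.84, and in Taf6l-KO 5.68 and 5.94.

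Over both windows, 5 of 9 wild-type H3K4me3 peaks were overlapped in Taf5l-KO and 5 of 9 in Taf6l-KO, against 84.6% and 80.8% of the whole list. The 4 that were not overlapped had fold enrichments from 3.34 to 4.15, and in their strata of the list between 40.5% and 71.5% of the peaks were overlapped in Taf5l-KO and between 31% and 62.4% in Taf6l-KO. All 3 whose −log10 q reached 5 were overlapped in both knockouts. Of the knockout H3K4me3 peaks, 0 of 5 in Taf5l-KO and 1 of 6 in Taf6l-KO lay outside wild-type peaks, against 14.2% and 10.5% of those lists.

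For total RNAP, 3 of 7 wild-type peaks in the windows were overlapped in Taf5l-KO and 5 of 7 in Taf6l-KO, against 52.5% and 60.4% of the whole list. In Taf5l-KO 0 of 3 peaks lay outside wild-type peaks (27.3% of that list) and in Taf6l-KO 2 of 7 (33.2%), both in the Lefty window and beginning at 182833123 and 182865190. For RNAP-ser5, 3 of 10 wild-type peaks were overlapped in Taf5l-KO (26.2% of the list) and 0 of 10 in Taf6l-KO (16.5%). All 3 lay in the Nodal window. In Taf5l-KO 2 of 6 RNAP-ser5 peaks lay outside wild-type peaks (48.3%). For RNAP-ser2, 1 of 6 wild-type peaks was overlapped in Taf5l-KO (36.6%) and 2 of 6 in Taf6l-KO (38.7%), while 2 of 3 Taf5l-KO peaks (49.8%) and 2 of 5 Taf6l-KO peaks (56.7%) lay outside wild-type peaks. These counts are small, and none is read as different from its list.

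Between the Oct4 sites of the Lefty window, polymerase in wild-type cells was also listed from 182840108 to 182841932 without Oct4, H3K4me3 or TAF6L-FB. RNAP-ser5 had 2 peaks there (fold enrichments 3.83 and 3.45), RNAP 1 (1328 bp, 3.47) and RNAP-ser2 1 (3.76). Of the knockout lists, RNAP-ser2 in Taf6l-KO was listed at this place, from 182840841 to 182842881 (2041 bp, 3.26). In the strata of the RNAP and RNAP-ser5 peaks, between 18.5% and 35.1% were overlapped in Taf5l-KO and between 12.1% and 26% in Taf6l-KO. The strongest wild-type RNAP-ser2 peak of the Lefty window lay from 182831455 to 182832070 (3.79, rank 21619 of 43039). That of Taf6l-KO lay from 182867915 to 182868077 (4.09, rank 13596 of 42451). No other list held a peak at either place.

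H3K9ac, the mark set by the acetyltransferase of SAGA-type complexes, was listed in neither window in any genotype, and so was Myc. This was the usual state of such stretches, since 91.3% of 65 kb stretches and 95% of 35 kb stretches held no wild-type H3K9ac peak, and 98.8% and 99.4% held no wild-type Myc peak. None of the 9 wild-type H3K4me3 peaks was overlapped by H3K9ac, against 12.2% of the list. In their strata the share ran from 0.587% for the weakest to 31.6% for that of the Nodal block. Wild-type RNAP overlapped 2 of the 9, against 48.5% of the list. These 2 lay in strata with shares of 69.6% and 78.9%. Of those not overlapped, 1 lay in a stratum with 73.6%, and the rest, which were weaker, in strata with 14.3% to 20.4%. The nearest wild-type H3K9ac peak lay 33 kb outside the Lefty window, from 182781317 to 182781967 (5.76), and 1010 kb outside the Nodal window.

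TAF5L-FB was listed in neither window in either line, with 136 and 7 peaks in its lists, and BirA, with 24 peaks, was listed in neither. In short lists this is the usual state, since between 99.7% and 100% (rounded) of stretches of either length held no TAF5L-FB peak of a given line. TAF6L-FB was listed in the Lefty window alone, with 2 peaks per line, and 0.236% of 65 kb stretches held as many for line 1 and 0.128% for line 2. For the Nodal window, 98.6% and 99.2% of 35 kb stretches held none. A TAF6L-FB peak from 182875687 to 182876048 in line 1 (3.48, rank 985 of 1140) overlapped the weakest wild-type H3K4me3 peak of the window (182875554 to 182875860, 3.43), and no list of a knockout held a peak there. Of the 3 TAF6L-FB places, 1 was found in both lines and the same 1 had a −log10 q of at least 5.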

How the data were processed

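ChIP-seq peak lists of 26 libraries were used, 1 list per library, so no replicates were pooled. The submitters' processing notes name Bowtie2 2.3.2 and the build mm9. MACS2 2.1.1.20160309 compared each library with an input at a q cutoff of 0.05, kept 1 tag per position and scaled the larger library down, per the file headers. H3K4me3, H3K9ac and RNA polymerase II were called with broad linking (cutoff 0.1), which joins weak stretches into wide peaks, and the other targets without it. The TAF lists used a set fragment size of 300 bp and BirA a modelled one of 49 bp, per the file headers, so the control was called differently. Each deposited list holds the pileup height as a signal, the fold enrichment (a ratio), −log10 p and −log10 q of each peak. These are the authors' values, which were ranked only within a list and not scaled between lists.

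Peaks outside the 19 autosomes, X and Y were set aside. Ranks, overlaps of at least 1 bp, 10% strata by fold enrichment or width, and equal stretches of the genome were computed with Python 3.11.15 and pandas 2.3.3. Groups came from the sample labels, and the lines of a tagged protein were numbered in the order listed. No test was made, since there was 1 library per target and genotype. Overlap counting was tested on simulated data, where an Oct4 list of 2564 peaks with 40.9% kept gave 40.9%. The kept peaks were shifted only slightly, so this checks the counting and not the overlap of separately called lists. Described one by one are the strongest peak of each list and window, all Oct4 and tagged-protein peaks, and places with 3 or more targets. Windows, members and lists were chosen with earlier results of these data known. Other genes of the Nodal pathway were not counted, since no mm9 annotation was used here. Alternatives were a −log10 q of at least 5, 50% coverage, merging within 1000 bp, windows wider by 10 kb, other ranking measures, leaving out each tagged line and removing BirA regions.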

Additional observations from a re-analysis of the deposited data

Results flagged for a closer look

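The number of total RNAP peaks in the Lefty window moved in opposite directions in the knockouts, from 4 for the wild type to 2 for Taf5l-KO (a difference of -2) and to 5 for Taf6l-KO (a difference of 1). With 1 library each, this difference was not tested, and among peaks whose −log10 q reached 5 the counts were 0, 1 and 2.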

How the results depend on the processing

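No paired analysis was possible because there was 1 library per target and genotype. The overlap counts of Oct4 kept their values under all 4 alternatives. Where −log10 q had to reach 5 in both lists, 3 of 3 wild-type H3K4me3 peaks were overlapped in each knockout, against 5 of 9. For RNAP the count was 0 of 1 in each knockout, since the knockout peaks at the Nodal block fell below 5. It was 0 for RNAP-ser5 in Taf5l-KO and 0 for RNAP-ser2 in each knockout, with no wild-type peak left. The TAF6L-FB places fell from 3 to 1. With 50% of the wild-type peak covered, 1 of 10 RNAP-ser5 peaks in Taf5l-KO counted as overlapped, and 0 of 6 and 1 of 6 RNAP-ser2 peaks in Taf5l-KO and Taf6l-KO. For H3K4me3 in Taf6l-KO the count fell from 5 to 4 of 9. The peak lost was the widest of the Lefty window, where the Taf6l-KO peak had 0.489 times the wild-type width. Merging and wider windows moved none of the 10 overlap counts by more than 1.5 times. Of the 52 peak counts, a −log10 q of at least 5 moved 20, and counts of 0 could not fall further. Wider windows moved 0. Merging moved 3, all of the wild type. RNAP-ser5 fell from 8 to 3 in the Nodal window and from 2 to 1 in the Lefty window. H3K4me3 fell from 4 to 2 in the Nodal window. Without either TAF6L-FB line 2 places were left, and TAF5L-FB stayed at 0. Of 28 best ranks, 23 were counted as moved when ranked by −log10 q and 27 by pileup. These counts do not measure the size of the shifts. By pileup the best rank moved from 18.1% to 18.6% of the list for wild-type RNAP-ser5 in the Nodal window. For Taf5l-KO RNAP-ser2 in the Lefty window it moved from 93.9% to 16.9%. The RNAP-ser5 library of Taf6l-KO had the fewest unique tags, 1702363, and the part of depth in its list was not tested.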
